A study of Mus musculus with 6 samples.

Results

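The genes described here encode the kinases that phosphorylate eIF2alpha, the phosphatase subunits that reverse it, eIF2alpha itself and a few direct regulators. They were selected by name from the pathway, with earlier results of these data known: Eif2ak1, Eif2ak2, Eif2ak3, Eif2ak4, Eif2s1, Ppp1r15a, Ppp1r15b, Gcn1, Impact and Oma1. All 10 were found among the 55487 genes of the deposited count table, each on 1 row. RNA was sequenced in bulk from 4T1, a mouse mammary carcinoma line of BALB/c origin. The 3 CEP libraries came from cells exposed for 12 h to 10 µM cepharanthine, a plant bisbenzylisoquinoline alkaloid, and the 3 DMSO libraries from cells given an equal volume of the solvent dimethyl sulfoxide for the same time. No genotype other than the line is given, and nothing in the labels says that replicates were separate cultures, so p-values measure the spread between these libraries, which may be technical. Coordinates are GRCm38.p6, 1-based, as in the deposited table. The comparison asks which transcripts differ in level between CEP and DMSO cells.

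Translation of most mRNAs starts with eIF2, a GTP-binding complex that brings the initiator tRNA to the ribosome. Each of several kinases phosphorylates a conserved serine of its alpha subunit under a different stress: HRI (Eif2ak1) under haem shortage and mitochondrial stress, PKR (Eif2ak2) with double-stranded RNA, PERK (Eif2ak3) under stress of the endoplasmic reticulum (ER), and GCN2 (Eif2ak4) under amino acid shortage or ribosome stalling. Phosphorylated eIF2 inhibits its own exchange factor eIF2B, which lowers general translation but raises that of ATF4 and a few other mRNAs, and protein phosphatase 1 carrying GADD34 (Ppp1r15a) or CReP (Ppp1r15b) removes the phosphate. These steps act largely on proteins and phosphorylation, which RNA counts do not measure.

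Library totals ran from 15299261 to 19655010 counts. The carcinoma epithelium markers Krt8, Krt18, Epcam and Cdh1 were abundant, summing to 2706 to 2768 in counts-per-million units (CPM) in CEP libraries and 3131 to 3212 CPM in DMSO libraries, with 2 higher and 2 lower in CEP cells. The leukocyte markers summed to at most 0.117 CPM in CEP libraries and 0.177 CPM in DMSO libraries, with Adgre1 at 0 counts throughout, and the 2 endothelial markers to at most 0.455 and 0.460 CPM. The 3 fibroblast and pericyte markers summed to 84.9 to 99.5 CPM in CEP and 62.1 to 68.8 CPM in DMSO libraries. Nearly all of this was Pdgfra, which was higher in CEP cells, while Pdgfrb and Dcn had at most 1 count in any library; the part of this difference in the results below was not tested. CEP replicate 1 stood nearer to the DMSO libraries on the first principal component than CEP replicates 2 and 3 did, and values without it are given where they matter. In bulk RNA, fewer cells of a type and less RNA per cell cannot be told apart.

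Of the 10 genes, 4 were higher in CEP cells (Ppp1r15a, Eif2ak3, Impact and Ppp1r15b), 2 were lower (Oma1 and Eif2s1) and 4 did not pass (Eif2ak1, Eif2ak2, Eif2ak4 and Gcn1). A gene was called at a Benjamini-Hochberg adjusted p under 0.05 in edgeR's quasi-likelihood test, fitted over all 13405 genes that passed a low-count filter, as all 10 did. Calls were common in this comparison: 20.1% of all genes tested were called higher, 18.2% lower and 38.2% in either direction, so a call alone sets a gene apart little. Changes of at least 2-fold were rarer, at 2.90% of genes, and Ppp1r15a and Eif2ak3 were among them. The 3 CEP and the 3 DMSO values did not overlap for the 6 called genes, against 49.9% of all genes tested. The median log2 fold change (CEP over DMSO) of the 10 genes was 0.03, and that of all genes 0.01.

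**Figure D1:**
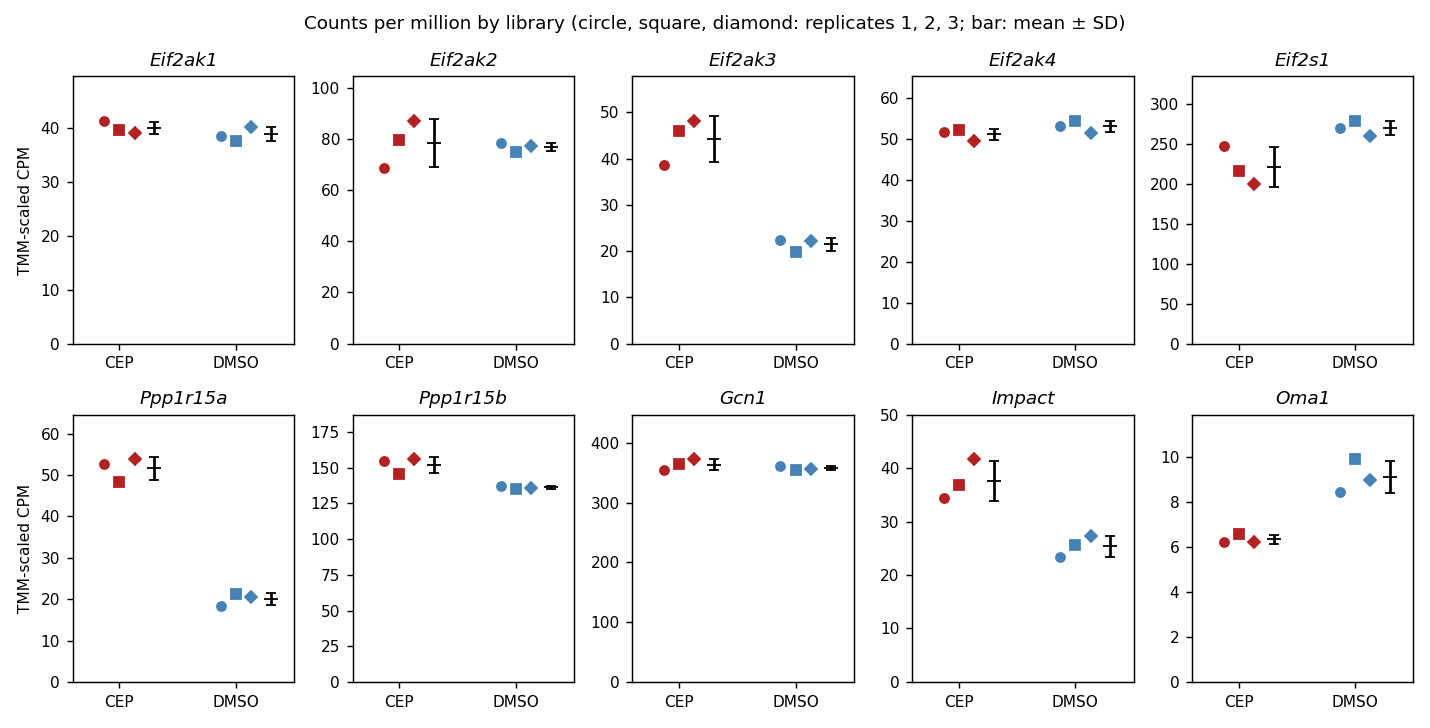
TMM-scaled CPM (vertical axes, from 0) of each gene in the 3 CEP libraries (red, left) and the 3 DMSO libraries (blue, right), with the mean ± SD beside them. Ppp1r15a and Eif2ak3 stand far above their DMSO libraries, while for Eif2ak2 the CEP libraries lie on both sides of the DMSO values.

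Ppp1r15a (chromosome 7, 45522916 to 45526268, minus strand), which encodes the stress-inducible phosphatase subunit GADD34, changed most. Its level was 52.6, 48.4 and 53.8 CPM in CEP replicates 1, 2 and 3, against 18.3, 21.3 and 20.5 CPM in DMSO replicates 1, 2 and 3 (CPM here are scaled by TMM, edgeR's correction for library composition). Every CEP library stood far above every DMSO library, and the CEP libraries lay close together. The log2 fold change was 1.37 ± 0.0779 (SE), a 2.58-fold rise, with an adjusted p of 2.25e-08 (edgeR quasi-likelihood test, Benjamini-Hochberg). Only 141 of the 13405 genes tested had a higher log2 fold change.

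Ppp1r15b (chromosome 1, 133131143 to 133139783, plus strand) encodes CReP, the constitutive subunit that recruits the same phosphatase. It had 155, 145 and 156 CPM in CEP replicates 1, 2 and 3, against 137, 135 and 136 CPM in DMSO replicates 1, 2 and 3. The groups did not overlap, but the step between them was small: its log2 fold change was 0.16 ± 0.0464 (SE, adjusted p = 0.0145, edgeR quasi-likelihood test). That call ended when CEP replicate 3, DMSO replicate 2 or DMSO replicate 3 was left out (edgeR adjusted p = 0.0559, 0.0700 and 0.0658, over a range of 0.00911 to 0.0700 among all alternatives tried).

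The balance between the 2 subunit transcripts can be read within each library, free of scaling between libraries. The log2 ratio of Ppp1r15a to Ppp1r15b counts was -1.55, -1.59 and -1.53 in CEP replicates 1, 2 and 3, against -2.90, -2.67 and -2.73 in DMSO replicates 1, 2 and 3. Ppp1r15b therefore had more counts than Ppp1r15a in every library, by less in CEP cells. The difference was 1.21 on the log2 scale, a 2.31-fold shift of the ratio with no overlap between groups. With 3 libraries a group, an exact two-sided permutation test cannot give a p below 0.1, which is the value it gave here (0.175 adjusted over the 7 ratios computed). Per kilobase of transcript, Ppp1r15a made up 40.3% ± 0.424 of the pair in CEP cells and 22.6% ± 1.48 in DMSO cells (SD, n = 3 each).

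Among the 4 kinase genes, Eif2ak3 (chromosome 6, 70844515 to 70905245, plus strand) alone passed the test. PERK, its product, is the ER membrane kinase that senses unfolded proteins in the ER lumen. Eif2ak3 had 38.7, 46.0 and 48.2 CPM in CEP replicates 1, 2 and 3, against 22.4, 19.9 and 22.2 CPM in DMSO replicates 1, 2 and 3. All CEP values lay above all DMSO values, with the lowest in CEP replicate 1. The log2 fold change was 1.04 ± 0.0900 (SE), a 2.05-fold rise (edgeR adjusted p = 1.03e-06), and 316 genes tested had a higher one.

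The other kinase transcripts did not pass. Eif2ak1 (chromosome 5, 143817788 to 143904251, plus strand), the gene of HRI, had 41.3, 39.7 and 39.2 CPM in CEP replicates 1, 2 and 3, against 38.6, 37.7 and 40.3 CPM in DMSO replicates 1, 2 and 3, so the groups overlapped. Its log2 fold change was 0.04, with a 95% interval of -0.10 to 0.18 (edgeR adjusted p = 0.629). Its exons share 487 bases with those of Aimp2 on the opposite strand, and whether counting used strand is not given. Eif2ak4 (chromosome 2, 118388618 to 118475234, plus strand), the gene of GCN2, had 51.6, 52.0 and 49.4 CPM in CEP replicates 1, 2 and 3, against 53.1, 54.3 and 51.5 CPM in DMSO replicates 1, 2 and 3, which overlapped as well. Its log2 fold change was -0.05, with a 95% interval of -0.18 to 0.07 (edgeR adjusted p = 0.505). These intervals leave room for changes of about the size seen for Ppp1r15b, but not for one like that of Eif2ak3.

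Eif2ak2 (chromosome 17, 78852564 to 78882573, minus strand), the gene of the RNA-activated kinase PKR, is itself induced by interferon. It had 68.5, 79.6 and 87.0 CPM in CEP replicates 1, 2 and 3, against 78.4, 75.0 and 77.1 CPM in DMSO replicates 1, 2 and 3. CEP replicate 1 lay below every DMSO library and CEP replicates 2 and 3 above every one. The log2 fold change was 0.03 (95% interval -0.13 to 0.19, edgeR adjusted p = 0.805). Its direction was not fixed: it was -0.06 without CEP replicate 3 and 0.10 without CEP replicate 1. The coefficient of variation was 11.9% in CEP libraries and 2.24% in DMSO libraries.

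Ratios between kinase transcripts showed the same division within libraries. They come from the same counts, so those that hold Eif2ak3 are not independent of its change or of each other. The log2 ratio of Eif2ak3 to Eif2ak2 was -0.82, -0.79 and -0.85 in CEP replicates 1, 2 and 3, against -1.81, -1.91 and -1.80 in DMSO replicates 1, 2 and 3. It differed by 1.02 between the groups. Eif2ak3 over Eif2ak1 differed by 0.99 and Eif2ak4 over Eif2ak3 by -1.09, and none of these 3 ratios overlapped between groups (exact two-sided permutation p = 0.1 each, the smallest the design allows, and 0.175 adjusted over 7 ratios). The 3 ratios without Eif2ak3 overlapped, with differences from -0.10 to -0.02 (exact two-sided permutation p = 0.2 to 0.9). Per kilobase, Eif2ak3 made up 20.9% ± 1.13 of the 4 kinase transcripts in CEP cells and 11.5% ± 0.551 in DMSO cells, and Eif2ak2 38.7% ± 2.34 in CEP and 42.9% ± 0.276 in DMSO cells (SD, n = 3 each).

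**Figure D2:**
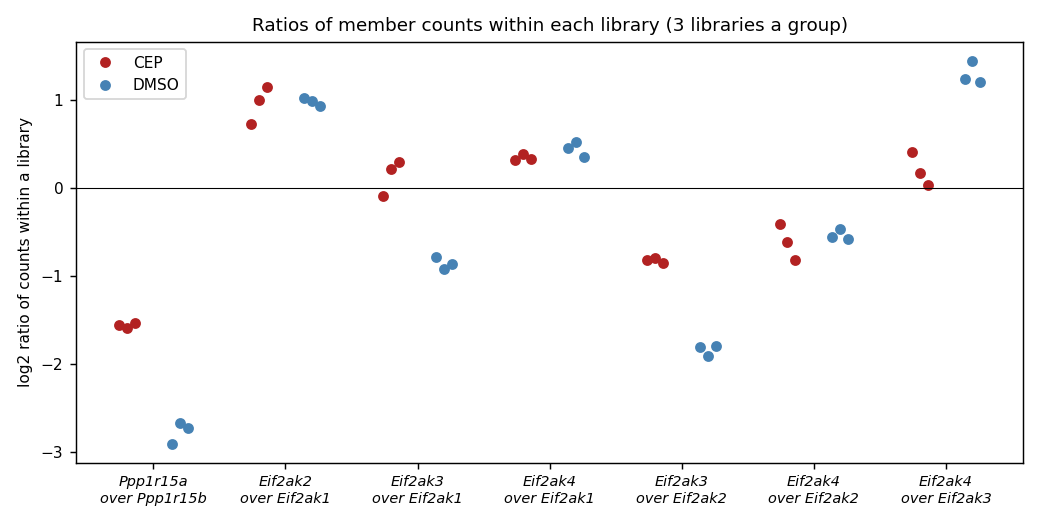
Log2 ratio of the counts of 2 genes within each library (vertical axis), with 3 CEP libraries in red and 3 DMSO libraries in blue for each of the 7 ratios. The 4 ratios that hold Ppp1r15a over Ppp1r15b or Eif2ak3 do not overlap between groups, and the other 3 do.

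Promoter sequences are shown for the genes with the largest rises and for the interferon-inducible kinase gene, to set out which motifs of ATF factors, ER stress and interferon they hold. RefSeq windows (GRCm38.p6) of 300 bases, 250 before to 50 after the start, matched 8 of the 10 genes, all but Ppp1r15b and Impact. Searched on both strands were TGATGNAA, the composite element of ATF4 and C/EBP, TGACGTCA, the cAMP response element bound by ATF and CREB factors, CCAAT, any 9 bases and CCACG, the ER stress response element, and GAAA, any 2 bases and GAAA, the core of the interferon-stimulated response element. Shown are the 150 bases before and 30 after each start, 5′ to 3′ on the gene's strand, with capitals for motif matches. They are Ppp1r15a (chr7:45526239-45526418, minus strand), Eif2ak3 (chr6:70844365-70844544, plus strand) and Eif2ak2 (chr17:78882543-78882722, minus strand).
Ppp1r15a: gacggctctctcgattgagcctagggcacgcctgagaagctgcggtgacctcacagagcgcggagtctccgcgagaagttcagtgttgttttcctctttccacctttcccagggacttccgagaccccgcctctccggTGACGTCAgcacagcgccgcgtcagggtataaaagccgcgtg
Eif2ak3: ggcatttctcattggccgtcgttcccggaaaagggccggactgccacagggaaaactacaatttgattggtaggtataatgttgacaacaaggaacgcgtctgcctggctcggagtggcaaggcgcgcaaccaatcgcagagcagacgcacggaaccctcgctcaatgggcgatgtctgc
Eif2ak2: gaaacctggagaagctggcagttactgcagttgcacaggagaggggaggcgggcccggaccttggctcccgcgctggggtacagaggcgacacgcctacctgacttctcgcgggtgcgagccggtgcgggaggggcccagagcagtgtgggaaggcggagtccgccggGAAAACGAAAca

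The Ppp1r15a window held the cAMP response element at -12 to -5 from the start, a motif found in 1.79% of the 32851 windows in the table. It also held 1 interferon-type core, GAAAGGGAAA, at -220 to -211, outside the stretch shown. The Eif2ak2 window held an interferon-type core at 19 to 28, counting the start as 1. The Eif2s1 window had one, GAAACAGAAA, at -212 to -203 from its RefSeq start. That window begins at 78861822, inside the span of Eif2s1 in the deposited table, which starts at 78861819. All of the Eif2s1 window, with its match, therefore lies downstream of the gene start given in this report. Of all windows, 3.44% hold such a core. None of the 4 motifs was in the Eif2ak3, Eif2ak1, Eif2ak4, Gcn1 or Oma1 windows, no match overlapped another, and TGATGNAA (3.97% of all windows) and the ER stress element (0.119%) were in none of the 8 genes' windows. These are matches of letters in a short window and say nothing of binding.

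Eif2s1 (chromosome 12, 78861819 to 78887010, plus strand), which encodes the alpha subunit that all 4 kinases phosphorylate, was lower in CEP cells. It had 248, 216 and 200 CPM in CEP replicates 1, 2 and 3, against 270, 279 and 261 CPM in DMSO replicates 1, 2 and 3. The groups did not overlap, and CEP replicate 1 came nearest to the DMSO libraries. The log2 fold change was -0.29 ± 0.0678 (SE, edgeR adjusted p = 0.00516).

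Impact and Gcn1 act on GCN2: GCN1 is the ribosome-bound protein that activates it, and IMPACT competes with GCN2 for GCN1 and so inhibits it. Impact (chromosome 18, 12955852 to 12992950, plus strand) had 34.4, 36.8 and 41.7 CPM in CEP replicates 1, 2 and 3, against 23.4, 25.6 and 27.3 CPM in DMSO replicates 1, 2 and 3, with no overlap. The log2 fold change was 0.56 ± 0.0872 (SE), a 1.48-fold rise (edgeR adjusted p = 1.95e-04). Gcn1 (chromosome 5, 115565254 to 115622654, plus strand) had 355, 365 and 373 CPM in CEP replicates 1, 2 and 3, against 362, 356 and 356 CPM in DMSO replicates 1, 2 and 3, and the groups overlapped. Its log2 fold change was 0.03, with a 95% interval of -0.07 to 0.12 (edgeR adjusted p = 0.685), and was -0.0053 with upper-quartile scaling. Along the GCN2 branch the inhibitor's transcript was thus higher, while those of the kinase and its activator did not pass.

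Oma1 (chromosome 4, 103313812 to 103371868, plus strand) encodes the protease of the mitochondrial inner membrane that cleaves DELE1, which then activates HRI. It had the fewest counts of the 10 genes, 101 to 119 counts in CEP libraries and 144 to 176 counts in DMSO libraries. Its level was 6.23, 6.57 and 6.24 CPM in CEP replicates 1, 2 and 3, against 8.48, 9.91 and 9.00 CPM in DMSO replicates 1, 2 and 3, with every CEP library below every DMSO library. The log2 fold change was -0.52 ± 0.128 (SE, edgeR adjusted p = 0.00503), and 506 genes tested had a lower one.

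**Figure D3:**
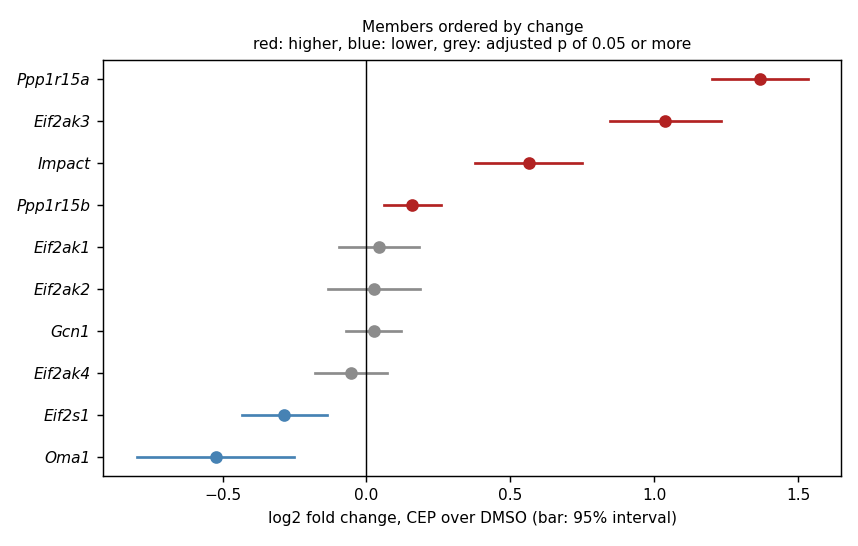
Log2 fold change, CEP over DMSO (horizontal axis), of the 10 genes ordered from Ppp1r15a at 1.37 to Oma1 at -0.52, with 95% intervals from the edgeR fit. Red marks genes called higher, blue those called lower and grey those that did not pass, whose intervals cross 0.

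Levels can be compared between genes only per length, and the lengths deposited with the table were too short for 2 of them: 389 bases for Ppp1r15a and 475 for Impact, against 2809 and 3763 bases for their longest coding transcripts in GENCODE M21 basic. Those transcript lengths were used for all 10 genes, as TMM-scaled CPM per kilobase (mean ± SD, n = 3). Eif2s1 stood highest, at 65.0 ± 7.21 in CEP and 79.3 ± 2.68 in DMSO cells, followed by Gcn1 at 42.6 ± 1.07 in CEP and 41.8 ± 0.388 in DMSO cells and Ppp1r15b at 27.2 ± 1.03 in CEP and 24.3 ± 0.186 in DMSO cells. Ppp1r15a (18.4 ± 1.01) and Eif2ak2 (18.2 ± 2.16) came next in CEP cells and did not differ beyond their spread, whereas in DMSO cells Ppp1r15a stood at 7.13 ± 0.547 and Eif2ak2 at 17.8 ± 0.399. Impact, Eif2ak3, Eif2ak4 and Eif2ak1 lay together in CEP cells, from 9.26 ± 0.262 for Eif2ak1 to 10.0 ± 0.983 for Impact, within their spread. In DMSO cells Eif2ak4 stood at 10.0 ± 0.270, Eif2ak1 at 8.98 ± 0.300 and Impact at 6.75 ± 0.518, while Eif2ak3 (4.76 ± 0.307) and Oma1 (4.77 ± 0.379) were lowest and not apart, and in CEP cells Oma1 was lowest at 3.31 ± 0.101.

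The CEP libraries were not alike for every gene. Relative to the DMSO mean, log2 CPM of Eif2ak3 stood 0.85, 1.10 and 1.16 higher in CEP replicates 1, 2 and 3, that of Impact 0.44, 0.53 and 0.71 higher, and that of Eif2s1 at -0.12, -0.32 and -0.43. CEP replicate 1 had the smallest change for these 3 genes. For Ppp1r15a the values were 1.39, 1.27 and 1.42, and for Oma1 -0.54, -0.47 and -0.54, so CEP replicate 1 was not the nearest to DMSO there. Eif2ak2 stood at -0.17, 0.05 and 0.18. The mean of 15 interferon-stimulated genes stood 0.21, 0.83 and 0.76 above the DMSO mean in the same libraries, and that of 11 genes downstream of eIF2alpha phosphorylation 1.06, 1.04 and 1.15 above it. Without CEP replicate 1, the log2 fold change was 1.11 for Eif2ak3, 0.61 for Impact, -0.39 for Eif2s1, 1.34 for Ppp1r15a and -0.52 for Oma1, and the 10 genes gave 4 calls higher and 2 lower. In that fit 6905 of 13650 genes tested were called in either direction, so 6 calls among 10 genes is close to that background.

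**Figure D4:**
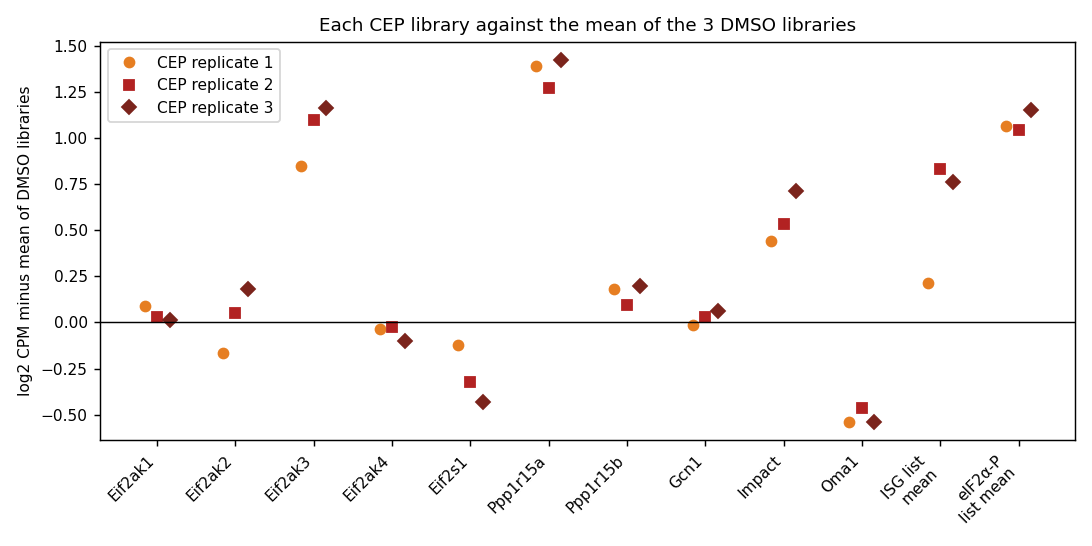
Log2 CPM of each CEP library minus the mean of the 3 DMSO libraries (vertical axis), for the 10 genes and for the mean of the interferon-stimulated (ISG) list and of the list downstream of eIF2alpha phosphorylation (eIF2α-P). CEP replicate 1 (circles) is nearest to 0 for Eif2ak3, Impact, Eif2s1 and the ISG list, but not for Ppp1r15a.

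Genes downstream of eIF2alpha phosphorylation were all higher: 11 of 11 tested were called higher and 0 lower, with a median log2 fold change of 0.92. Of all genes tested, 20.1% were called higher. Ddit3, the gene of the transcription factor CHOP, which activates Ppp1r15a, averaged 15.9 ± 1.64 CPM in CEP cells and 4.11 ± 0.455 CPM in DMSO cells (SD, n = 3 each). Atf3, a stress-induced factor gene, averaged 23.7 ± 2.36 CPM in CEP and 5.18 ± 0.707 CPM in DMSO cells, and Chac1, a glutathione-degrading enzyme gene, 97.1 ± 5.41 CPM in CEP and 29.9 ± 0.391 CPM in DMSO cells. Atf4 differed less than Ddit3, Atf3 and Chac1, with 392 ± 47.5 CPM in CEP cells and 287 ± 7.95 CPM in DMSO cells. Its log2 fold change was 0.45 ± 0.0716 (SE, edgeR adjusted p = 3.96e-04), above those of Asns (0.40) and Cebpg (0.22) in the same list. The main control of Atf4 is translational, and the part of this in its RNA level was not tested.

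Of 10 tested ER stress sensors and targets, 6 were higher, 0 lower and 4 did not pass (median log2 fold change 0.20). The share called higher among all genes tested was 20.1%. Herpud1, of ER-associated degradation, averaged 108 ± 9.66 CPM in CEP and 52.5 ± 3.15 CPM in DMSO cells, and Dnajb9, an ER co-chaperone gene, 31.6 ± 3.76 CPM in CEP and 16.2 ± 0.237 CPM in DMSO cells (SD, n = 3 each). Xbp1, the factor gene spliced by IRE1, rose by 0.38 ± 0.0695 (SE, edgeR adjusted p = 7.93e-04). Hspa5, the chaperone BiP that holds PERK inactive, had a log2 fold change of 0.12 ± 0.0647 (SE, edgeR adjusted p = 0.166), and was called higher when CEP replicate 1 was left out, at 0.17. With upper-quartile scaling, or without CEP replicate 1, 1 gene of this list was called lower.

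The partners of these proteins were mostly lower or unresolved. Of all genes tested, 18.2% were called lower and 20.1% higher. Among the 3 catalytic subunits of protein phosphatase 1, which GADD34 and CReP recruit, 2 were lower and 0 higher (median log2 fold change -0.32). All 3 were called lower without CEP replicate 1, and also with upper-quartile scaling. Ppp1ca averaged 217 ± 26.2 CPM in CEP and 283 ± 4.68 CPM in DMSO cells, Ppp1cc 177 ± 8.43 CPM in CEP and 222 ± 7.10 CPM in DMSO cells (SD, n = 3 each). In the eIF2 and eIF2B list 5 of 10 tested genes were lower and 1 higher (median log2 fold change -0.11). The list also holds Eif5, Eif2a and Eif2d, which encode no subunit of either complex. Eif5 was the 1 called higher, and Eif2d (-0.16) was among the 5 lower. The count lower was 3 when CEP replicate 2 or 3 or any DMSO replicate was left out, and 6 without CEP replicate 1. Eif2s3x, of the gamma subunit that binds GTP, was lower by -0.35 ± 0.0532, and the eIF2B subunit genes Eif2b1 and Eif2b3 by -0.32 ± 0.0801 and -0.33 ± 0.0821 (log2, SE). Eif5, which stimulates GTP hydrolysis by eIF2, rose by 0.38 ± 0.0625 (SE, edgeR adjusted p = 3.67e-04). Eif2s3y had 0 counts in all 6 libraries.

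Of 14 regulators of the kinases 0 were higher and 3 lower (median log2 fold change -0.08), a share near the 18.2% of all tested genes called lower. The 3 were Rplp1 (-0.22) and Rplp0 (-0.15), of the ribosomal stalk that activates GCN2, and Map3k20 (-0.15), of the kinase ZAK that senses ribosome collisions. The count lower was 5 without CEP replicate 1, 1 without CEP replicate 2 or 3 or DMSO replicate 3, 0 without DMSO replicate 2 and 1 when replicate number entered as a block. Without CEP replicate 1, 1 regulator (Hspa5) was called higher. Dnajc3, whose product p58IPK inhibits PERK and PKR, had a log2 fold change of 0.05 ± 0.0496 (SE, edgeR adjusted p = 0.460). In the mitochondrial list around OMA1, 5 of 9 genes were lower and 0 higher (median log2 fold change -0.16), against 18.2% of all genes called lower. Among the 5 were the prohibitin gene Phb (-0.25 ± 0.0485, SE), the rhomboid protease gene Parl (-0.27 ± 0.0662) and Afg3l2 (-0.20 ± 0.0542), of a matrix-facing protease. The count lower was 3 without CEP replicate 2 or 3 or DMSO replicate 2, and 2 without DMSO replicate 3, where Afg3l2 did not pass. In this list 7 genes were lower without CEP replicate 1, and 7 with upper-quartile scaling. Dele1, the substrate of OMA1 that signals to HRI, had a log2 fold change of 0.12 ± 0.0693 (SE, edgeR adjusted p = 0.193).

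Interferon-stimulated genes are the group to which Eif2ak2 belongs by its regulation. Of 15 tested, 10 were higher and 0 lower (median log2 fold change 0.58), against 20.1% of all genes tested called higher. The count higher was 15 without CEP replicate 1, in which the list's mean stood only 0.21 above DMSO, 7 without CEP replicate 3, and 8 to 11 with any other library left out. Oasl1 averaged 58.2 ± 5.62 CPM in CEP and 26.2 ± 0.764 CPM in DMSO cells, Ifit1 18.7 ± 3.20 CPM in CEP and 9.12 ± 0.347 CPM in DMSO cells, and Irf9, of the interferon-activated factor complex, 36.0 ± 3.40 CPM in CEP and 24.1 ± 0.755 CPM in DMSO cells (SD, n = 3 each). The difference between Eif2ak2 and this list was not tested.

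**Figure D5:**
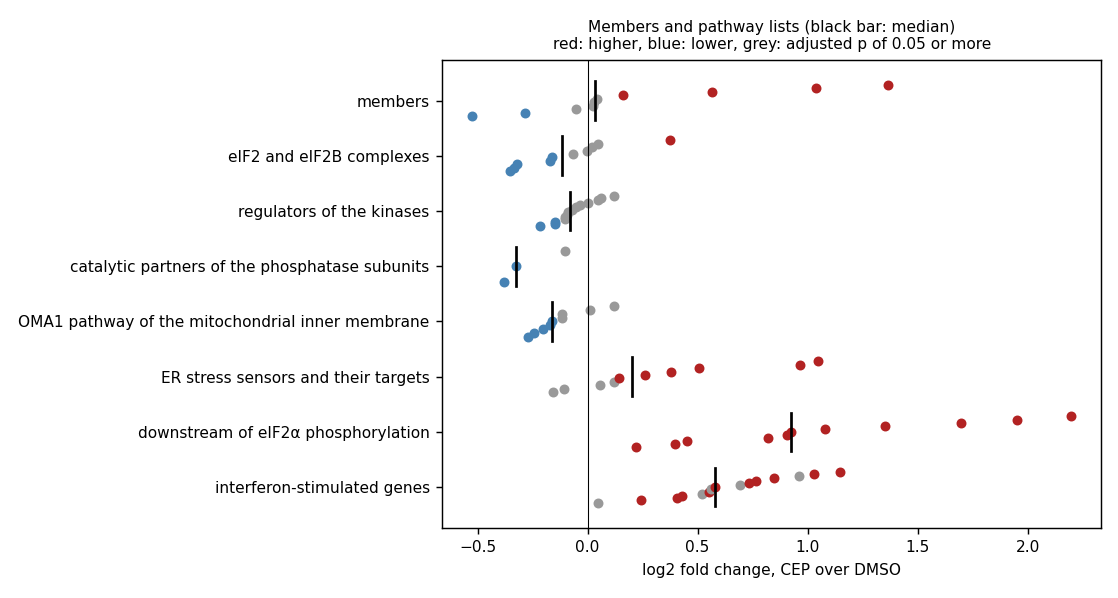
Log2 fold change, CEP over DMSO (horizontal axis), of every tested gene of the 10 members and of 7 pathway lists, with the median as a black bar. All 11 genes downstream of eIF2alpha phosphorylation are red (called higher), while in the phosphatase partner, eIF2 and mitochondrial lists most called genes are blue (lower).

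Over the 6 libraries, the genes whose log2 CPM followed Ppp1r15a most closely among 9949 compared were Gnpda1, a glucosamine-phosphate deaminase gene (Pearson r = 0.999), Ap3d1, of an adaptor complex of lysosomal sorting (r = 0.999), and Tax1bp1, an autophagy receptor gene (r = 0.999). Pearson r does not measure the size of a change: log2 fold changes were 0.99 for Gnpda1, 0.47 for Ap3d1 and 0.125 for Tax1bp1, against 1.37 for Ppp1r15a. As a description the ranking by r has little power to single out genes. In all, 1468 genes had r above 0.9, and the points share the same division into CEP and DMSO.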

How the data were processed

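Although GEO's library source field says single cell, the protocols are those of bulk RNA, and each of the 6 columns is 1 library. Per the labels' protocols, poly(A) RNA from Trizol extracts went into libraries made with the TruSeq Stranded mRNA kit. The authors deposited whole-number read counts per Ensembl gene, not normalised, with coordinates on GRCm38.p6. The submitters' processing notes name HISAT2, HISAT, HTSeq and DESeq2 without saying what each did; the strand setting of counting is not given in the sources used here. The gene lengths in the table are the authors' own. No value column was left out.

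After edgeR's filterByExpr (counts of at least 10, total of at least 15) and TMM scaling, 13405 genes were fitted with a robust edgeR quasi-likelihood model holding only the group, and p-values were adjusted by Benjamini-Hochberg over all of them. SE is the size of the log2 fold change divided by the root of F, and 95% intervals use it with a t distribution. The fit was first tested on simulated data with known changes. It recovered 52.0% of 1.25-fold, 62.0% of 1.50-fold, 91.8% of 2-fold and 98.0% of 4-fold changes. Of its 159 calls 5.66% were false. The simulation held far fewer changes than the data, which gave 5125 calls. Ratios used counts plus 0.5 and exact two-sided permutation tests over 20 assignments. Replicate pairs differed by more than sampling noise (chi-square per degree of freedom 1.81 to 10.9). Pairs with CEP replicate 1 gave 9.03 and 10.9, against 2.27 for CEP replicates 2 and 3 and 1.81 to 3.53 for DMSO pairs. Each library entered the fit as 1 replicate. Such a spread cannot tell separate cultures from separate library preparations. The members and lists were chosen with earlier results of these data known. All members are named, and of each list up to 3 genes a direction by adjusted p, plus Atf4, Ddit3, Atf3, Dele1, Dnajc3 and Hspa5. Alternatives were RLE, upper-quartile and no scaling, DESeq2, limma-voom, no filter or 1 CPM in 3 libraries, replicate number as a block, leaving out each library, and a threshold of 0.01. Software was edgeR 4.0.16, limma 3.58.1 and DESeq2 1.42.0 in R 4.3.3, and scipy 1.17.1 in Python 3.11.15.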

Additional observations from a re-analysis of the deposited data

How the results depend on the processing

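Over 15 alternatives, Ppp1r15a (log2 fold change 1.30 to 1.41), Eif2ak3 (0.97 to 1.11), Impact (0.48 to 0.62), Eif2s1 (-0.39 to -0.22) and Oma1 (-0.58 to -0.47) kept direction and call. Ppp1r15b (0.13 to 0.19) lost its call in 4, among them the threshold of 0.01. Of the genes that had not passed, Eif2ak2 and Gcn1 turned sign. Eif2ak2 was at -0.0036 with upper-quartile scaling, and at -0.0555 to 0.1031 with 1 library left out. Gcn1 was at -0.0053 with upper-quartile scaling. Eif2ak1 (0.0042 to 0.0681) and Eif2ak4 (-0.0835 to -0.03) kept their sign. The count of all changed genes was 3307 at a threshold of 0.01, and 3735 to 6905 with 1 library left out. With 1 library left out, 5 to 6 members changed, 3 to 4 higher and 2 lower. The log2 ratio difference was 1.14 to 1.26 for Ppp1r15a over Ppp1r15b, 0.92 to 1.11 for Eif2ak3 over Eif2ak1, 0.98 to 1.04 for Eif2ak3 over Eif2ak2 and -1.19 to -1.01 for Eif2ak4 over Eif2ak3. It was -0.14 to -0.06 for Eif2ak4 over Eif2ak1, -0.12 to 0.0945 for Eif2ak2 over Eif2ak1 and -0.18 to 0.0259 for Eif2ak4 over Eif2ak2; the last 2 turned sign. With the replicate number as a block, 4896 genes changed, 6 of them members. Same-numbered libraries did not deviate together (correlations -0.05, 0.02 and -0.04). With so few libraries a group, this cannot tell whether they shared a culture or a day. Where a call ended or turned, the cause was not tested. Depth limits Oma1 most, at 101 to 176 counts a library.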

Other observations

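Neighbouring genes were looked up after the members' values were seen, in GENCODE M21. Eif2s1 and Atp6v1d, a subunit gene of the vacuolar proton pump, start 181 bases apart on opposite strands. Atp6v1d had 94.1, 96.0 and 95.5 CPM in CEP replicates 1, 2 and 3, against 50.7, 55.8 and 52.3 CPM in DMSO replicates 1, 2 and 3, a log2 fold change of 0.85 ± 0.0549 (SE, edgeR adjusted p = 6.78e-08), while Eif2s1 was lower. Ppp1r15a starts 62 bases from Plekha4 on the other strand, which had at most 0.195 CPM in CEP libraries and 0.102 CPM in DMSO libraries and was not tested.

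Exons of Eif2ak1 overlap by 487 bases those of Aimp2, on the opposite strand. Aimp2, which encodes a scaffold of the tRNA synthetase complex, averaged 30.4 ± 3.81 CPM in CEP cells and 40.1 ± 1.89 CPM in DMSO cells (SD, n = 3 each; log2 fold change -0.40, edgeR adjusted p = 0.00242). If counting ignored strand, reads of the shared stretch could not be told apart, and their part in the Eif2ak1 value was not tested. Exon overlaps of Eif2ak3 with Gm43292 (485 bases) and of Ppp1r15b with Gm26616 (640 bases) involve transcripts at no more than 0.715 CPM in CEP libraries and 0.131 CPM in DMSO libraries.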
